A study of Mus musculus with 6 samples.

Results

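The mitochondrially encoded transcripts are the 37 genes of the mouse mitochondrial genome, chosen as every row of the count table whose symbol starts with mt-, of 54532 genes in all. They comprise 13 protein-coding genes, 2 ribosomal RNA (rRNA) genes and 22 transfer RNA (tRNA) genes. Their expression was compared between 2 groups of cells from the dissociated dorsal epidermis of C57BL/6 mice aged 4 weeks, with no treatment or genetic change given for either group. NCAM-enriched cells (3 libraries) were taken on magnetic beads and then sorted for polysialylated NCAM, the surface antigen used to obtain Merkel cells, and for exclusion of the dead-cell dye DAPI. Bulk skin (3 libraries) was sorted as DAPI-negative cells alone, NCAM playing no part, so that it can contain Merkel cells. Each library was prepared by Smart-seq2 from 500 sorted events and held 1343190 to 4481830 counts. Whether the replicates were separate animals is not stated, so p-values measure only the spread between these libraries, which may be technical. Abundant sequences, which ones is not stated, were removed before alignment, so shares are of what remained.

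Mitochondria keep a small circular genome whose products are subunits of respiratory chain complexes I, III and IV and of the ATP synthase, together with the rRNAs and tRNAs needed to translate them. Both strands are transcribed as long precursors that are cut at the tRNAs lying between most of the other genes. Most of the mRNAs receive poly(A) tails and the rRNAs short ones, whereas mature tRNAs carry none. Smart-seq2 copies RNA from poly(A) with an oligo-dT primer. The nuclear genome holds old and recent insertions of mitochondrial DNA, annotated as pseudogenes, and a read that matches both places equally well has no unique origin.

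Of the 37 genes, 14 had no count in any of the 6 libraries. These were 5 protein-coding genes, mt-Co2 and mt-Co3 (subunits of complex IV, cytochrome c oxidase), mt-Atp6 and mt-Atp8 (subunits of the ATP synthase) and mt-Nd4l (a subunit of complex I, NADH dehydrogenase), and 9 tRNA genes. The 5 protein-coding genes lie in 1 stretch of chromosome M, from 7013 to 10173 (GRCm38), where mt-Nd3 is the sole other protein-coding gene. To see whether reads from them could have been placed uniquely, every 50-base window of each mitochondrial transcript, the length of the sequencing reads, was searched on both strands of all other annotated transcripts. An exact copy was found for 100% of the windows of mt-Co2, 99.5% of mt-Atp6, 99.9% of mt-Co3 and 98.8% of mt-Nd4l. The same was true of 98.0% of the windows of mt-Nd3, another complex I subunit, which had 27 counts in all and whose sole difference from its copy Gm28438 over 345 aligned bases was T3C (base 3 of the transcript, mitochondrial base first). The start of mt-Co2 (chromosome M, 7013 to 7072, plus strand) and the start of its copy Gm28661 (chromosome 1, 24615506 to 24615565, minus strand) are shown because no base tells them apart.
mt-Co2: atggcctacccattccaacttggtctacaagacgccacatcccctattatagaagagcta
Gm28661: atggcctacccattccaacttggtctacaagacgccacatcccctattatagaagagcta

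The copies lay together. The 7 pseudogenes Gm29216, Gm28661, Gm10925, Gm28437, Gm28438, Gm10222 and Gm28439 fill chromosome 1 from 24611535 to 24616197 on the minus strand and follow the mitochondrial gene order from mt-Co1, a complex IV subunit, to mt-Nd4, a complex I subunit. Of the 7, 5 matched their mitochondrial gene without a mismatch, over 294 to 876 aligned bases. The matching stretch spans 6394 to 11042 of the mitochondrial genome and contains 11 whole genes, of which 9 were at 0, while 5 of the genes at 0 lay outside it, all of them tRNA genes. No annotated transcript shared a 50-base window with mt-Atp8, which falls in the 233-base gap between Gm28661 and Gm10925, and the genome sequence of that gap was not used here. One end of the stretch lies within mt-Co1, shown here with the bases that differ in capitals (mt-Co1: chromosome M, 6381 to 6440, plus strand; Gm29216: chromosome 1, 24616138 to 24616197, minus strand). All 6 differences fall at positions 1056 to 1066 of mt-Co1, and the following 479 bases, up to the end of the gene, are identical.
mt-Co1: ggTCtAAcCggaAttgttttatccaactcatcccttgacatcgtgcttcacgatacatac
Gm29216: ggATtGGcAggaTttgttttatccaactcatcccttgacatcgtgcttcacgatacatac

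The genes at the edges of the stretch were copied in part, with 62.2% of the windows of mt-Nd4 found in Gm28439 and 28.7% of those of mt-Co1 found in Gm29216. Counting every other transcript, the copied share of mt-Co1 was 51.1%. In the remaining protein-coding and rRNA genes the copied share was 8.19% for mt-Nd2, 7.61% for mt-Nd5, 1.04% for mt-Rnr2 and 0 for mt-Rnr1, mt-Nd1, mt-Nd6 and mt-Cytb. The 7 pseudogenes of chromosome 1 together had 60 counts over the 6 libraries, against 79892 counts for the mitochondrially encoded genes. Few counts were thus assigned to these copies, which does not show whether reads of the copied stretch were few. Since a read of copied sequence has no unique origin, and how such reads were counted is not given in the sources used here, no level can be stated for mt-Co2, mt-Co3, mt-Atp6 or mt-Nd4l, and those of mt-Co1 and mt-Nd4 may cover only part of each gene.

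**Figure D1:**
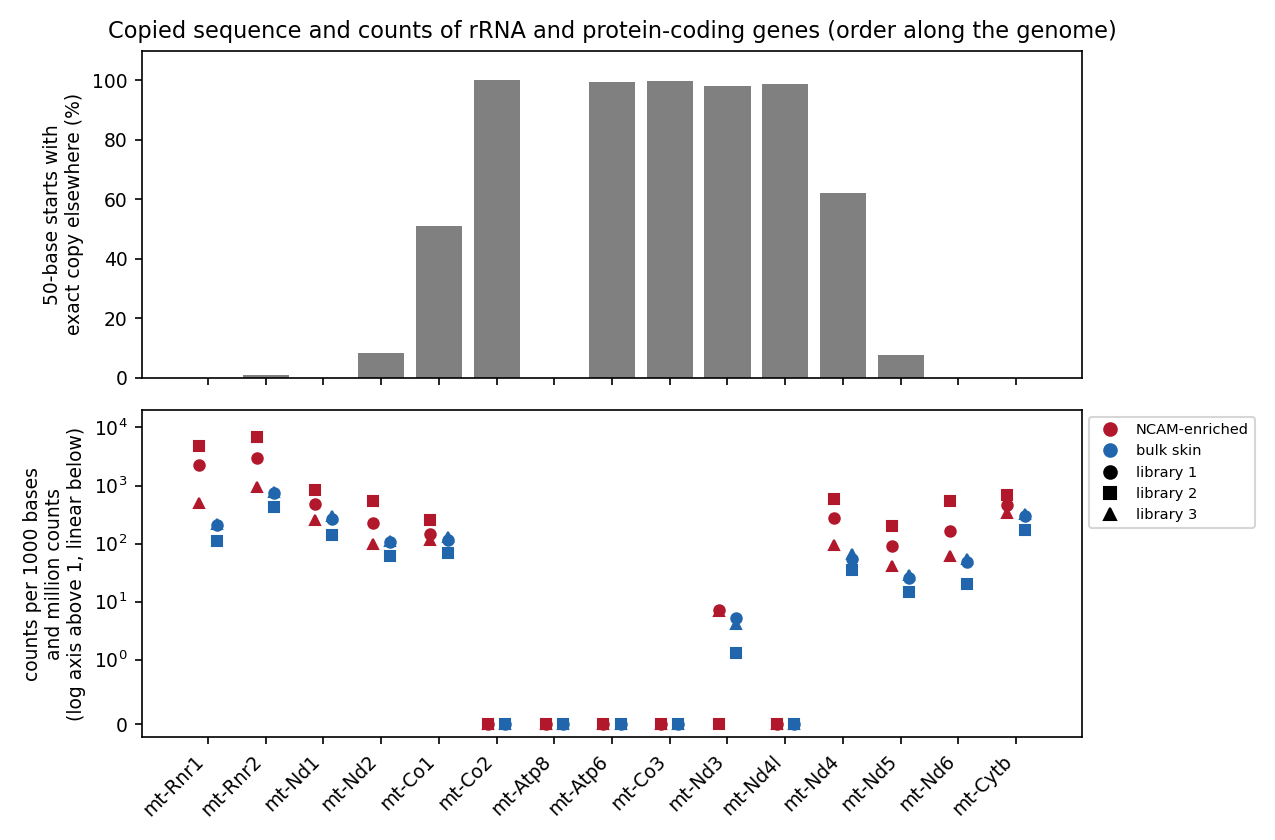
Upper panel, percentage of the 50-base windows of each mitochondrial rRNA and protein-coding gene that have an exact copy in another annotated transcript. Lower panel, CPM per 1000 bases in each library (red, NCAM-enriched; blue, bulk skin; symbols, libraries 1 to 3; log axis above 1, linear below). The genes from mt-Co2 to mt-Nd4l are at 0 in every library except for mt-Nd3, and all but mt-Atp8 are copied over at least 98.0% of their windows.

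Counts of mitochondrially encoded genes took a larger share of the library in the NCAM-enriched group. They numbered 17884, 26503 and 11907 for the NCAM-enriched group (libraries 1 to 3) and 8234, 6251 and 9113 for bulk skin. As a share of library counts this was 0.896% (exact 95% binomial interval 0.883 to 0.910), 1.97% (1.950 to 1.997) and 0.313% (0.308 to 0.319) in the NCAM-enriched libraries and 0.247% (0.242 to 0.252), 0.139% (0.136 to 0.143) and 0.263% (0.257 to 0.268) in bulk skin. Every NCAM-enriched library lay above every bulk skin library, although library 3 reached only 1.19 times the highest bulk skin library and library 2 stood well above the others. The means were 1.06 ± 0.842% (SD, n = 3) and 0.216 ± 0.0671%, a ratio of 4.90. The intervals cover counting error only, and the exact two-sided permutation p was 0.1, the smallest that 3 against 3 can give (0.133 after Benjamini-Hochberg adjustment over the 4 class comparisons). Without NCAM-enriched library 2 the difference in means fell from 0.845 to 0.389 percentage points.

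The difference was largest in the rRNA class and was not seen in the tRNA class. Whether the abundant sequences removed before alignment included rRNA is not stated. The rRNA counts, and ratios that use them, may thus be only what this removal left. The 2 rRNA genes took 0.687%, 1.56% and 0.196% of the counts in the NCAM-enriched libraries and 0.136%, 0.0782% and 0.143% in bulk skin, with means of 0.815 ± 0.691% and 0.119 ± 0.0354% (exact permutation p = 0.1, adjusted 0.133). The protein-coding genes took 0.207%, 0.399% and 0.115% against 0.104%, 0.0582% and 0.114%. Their groups did not overlap either, but NCAM-enriched library 3 reached only 1.01 times bulk skin library 3, and the difference was within the counting intervals of both (0.111 to 0.118% and 0.110 to 0.117%). The means for this class were 0.240 ± 0.145% and 0.0920 ± 0.0297% (exact permutation p = 0.1, adjusted 0.133). Over the 5 genes with counts and with at least 90% of their windows without a copy (mt-Nd1, mt-Nd2, mt-Nd5, mt-Nd6 and mt-Cytb) the groups overlapped, at 0.146%, 0.280% and 0.0833% against 0.0787%, 0.0428% and 0.0846% (exact permutation p = 0.2). Without NCAM-enriched library 2 the differences were 0.323 percentage points instead of 0.696 for rRNA and 0.0691 instead of 0.148 for the protein-coding genes. The tRNA genes took 0.00216%, 0.0133% and 0.00229% in the NCAM-enriched libraries and 0.00729%, 0.00312% and 0.00634% in bulk skin, so the groups overlapped (means 0.00592 ± 0.00641% and 0.00559 ± 0.00218%, exact permutation p = 1). The sign of the tRNA difference rested on single libraries: it was -0.00336 percentage points without NCAM-enriched library 2 and -0.000893 without bulk skin library 2, against 0.000338 with all libraries.

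**Figure D2:**
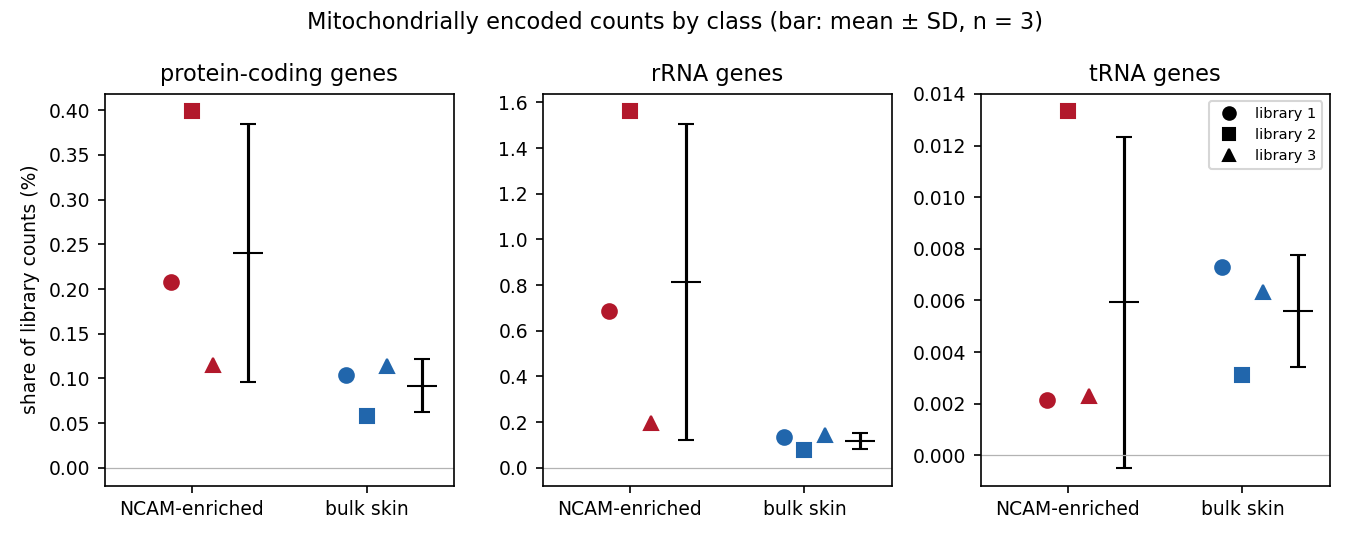
Share of library counts (%) taken by mitochondrial protein-coding, rRNA and tRNA genes in each library (symbols, libraries 1 to 3; bar, mean ± SD, n = 3). NCAM-enriched library 2 is the highest library in all 3 panels, and the groups overlap only for the tRNA genes.

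NCAM-enriched library 2 was also the shallowest library, with 1343190 counts, and NCAM-enriched library 3 the deepest of its group, with 3798136. All 10 Merkel cell markers were detected and summed to 1569, 1674 and 482 CPM (counts scaled to the normalised library size) for NCAM-enriched cells. Bulk skin had 133 to 186 CPM. The library order within the NCAM-enriched group was that of the mitochondrial share. The fibroblast and melanocyte lists had that order too, and depth had the reverse order. Fibroblast genes (5 of 5 detected in both groups) summed to 361, 32932 and 41.4 CPM against 10319 to 18167, and NCAM-enriched library 2 was thus the highest of all libraries for this list as well. Suprabasal keratinocyte genes summed to 36392, 14072 and 18790 CPM against 1470 to 1654 (9 of 9 higher on average; Flg at 0 in bulk skin), and basal keratinocyte genes to 9550, 6879 and 30316 CPM against 11589 to 15984 (4 of 5 higher on average). Langerhans and myeloid genes reached 374 to 496 CPM against 10051 to 17702, T and NK cell genes 3.09 to 44.6 CPM against 3261 to 3478 (Cd3d at 0 in the NCAM-enriched group), and red blood cell genes 3.09 to 23.9 CPM against 747 to 1176 (Hba-a2 and Hbb-bt at 0 in the NCAM-enriched group). These immune and blood cell lists were thus far lower in every NCAM-enriched library. Skeletal muscle genes summed to 266, 160 and 7.66 CPM against 0 to 1.10 (Ckm at 0 in the NCAM-enriched group; Acta1, Myh4 and Myh1 at 0 in bulk skin) and melanocyte genes to 2.66, 64.1 and 2.27 CPM against 0.310 to 2.19 (Mlana at 0 in both groups and Tyrp1 in bulk skin). Stress response and immediate early genes summed to 8251, 8070 and 14198 CPM against 6410 to 8723 (5 of 9 higher on average). The part of these cell types, of stress and of depth in the mitochondrial difference was not tested. Since each library pools many cells, fewer cells of a type and less RNA per cell cannot be told apart.

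Gene by gene, 12 of the 37 genes passed the filter on low counts, namely both rRNA genes, 7 protein-coding genes and 3 tRNA genes. Of the 12, mt-Rnr1 was higher in the NCAM-enriched group by edgeR's quasi-likelihood test at an adjusted p of at most 0.05, and none was lower, where 1.04% of all 13157 genes tested were called higher and 1.55% lower. DESeq2 called 5 of the 12 higher (5.06% of all genes) and limma-voom 3 (2.67%). With edgeR, 6 were called higher when every gene with at least 1 count was tested (2.76% of all genes), 0 with the replicate block (0.38%), 0 without NCAM-enriched library 1 (0.422%), 2 without library 2 (3.09%) and 6 without library 3 (7.35%). Without bulk skin library 1, 2 or 3 the count was 0, where 0%, 0% and 0.00678% of all genes were called higher. In edgeR 8 of the 12 had an unadjusted p under 0.05, all of them above 0, beside 18.9% of all genes in either direction, and 10 of the 12 had a log2 fold change above 0. The median log2 fold change of the 12 was 1.601, beside -0.07 over all genes tested. In 7 of the 12 (both rRNA genes, mt-Co1, mt-Nd4, mt-Nd5, mt-Nd6 and mt-Cytb) every NCAM-enriched library lay above every bulk skin library, as it did in 11.1% of all genes tested, and in none was the reverse seen (19.3% of all genes). On library totals in place of normalised library sizes mt-Co1 overlapped, and the count was 6 of the 12, beside 9.42% of all genes.

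The rRNAs of the small and large mitochondrial ribosomal subunits were the highest by CPM in the NCAM-enriched group, whereas in bulk skin mt-Rnr1 was below mt-Cytb and mt-Nd1. mt-Rnr1, the 12S rRNA gene (chromosome M, 70 to 1024, plus strand), had 2243, 4795 and 516 CPM in the NCAM-enriched libraries against 206, 101 and 196 CPM in bulk skin. The lowest NCAM-enriched library was thus well above the highest bulk skin library. Its log2 fold change was 3.91 ± 0.80 (SE), a fold of 15.01 (edgeR adjusted p = 0.0419, from 3.49e-11 to 0.246 over 14 alternatives, of which 9 called it). The call was lost without NCAM-enriched library 1 (edgeR adjusted p = 0.0711), without bulk skin library 1 (0.246), 2 (0.214) or 3 (0.221) and in a fit with the replicate block (0.119). The log2 fold change of mt-Rnr1 stayed between 3.03 and 4.32 whichever of the 6 libraries was left out. mt-Rnr2, the 16S rRNA gene (chromosome M, 1094 to 2675, plus strand), had 5038, 11406 and 1601 CPM against 1197, 656 and 1162. These groups did not overlap either, and the log2 fold change was 2.58 ± 0.74 (edgeR adjusted p = 0.0930, DESeq2 adjusted p = 0.00269). Both rRNAs are rich in adenine, with 37.8% A in mt-Rnr1 and 38.2% A in mt-Rnr2, and their longest runs of A are shown in capitals with their surroundings, since an oligo-dT primer can also start within such runs, which was not tested here. The runs are 5 bases in mt-Rnr1 and 7 in mt-Rnr2, and mt-Nd2, with 8, and mt-Co1, mt-Nd4 and mt-Nd5, with 7 each, have runs at least as long (shown: chromosome M, 678 to 736 and 1461 to 1521, plus strand).
mt-Rnr1: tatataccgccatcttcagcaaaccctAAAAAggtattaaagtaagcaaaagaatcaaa
mt-Rnr2: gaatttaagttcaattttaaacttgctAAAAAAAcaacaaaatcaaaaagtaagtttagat

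The 2 rRNAs did not differ to the same degree. The ratio of mt-Rnr1 to mt-Rnr2 counts, which does not depend on library size, was 0.445, 0.420 and 0.323 in the NCAM-enriched libraries and 0.172, 0.154 and 0.169 in bulk skin. All 3 NCAM-enriched libraries lay above all bulk skin libraries, by 1.25 on the log2 scale between the group means (exact permutation p = 0.1, the smallest possible), and by 1.16 to 1.39 with any single library left out. In the same way the ratio of rRNA to protein-coding counts was 3.31, 3.91 and 1.71 against 1.30, 1.34 and 1.26, with a log2 difference of 1.11 (exact permutation p = 0.1; 0.873 to 1.47 with any single library left out). Bulk skin libraries were nearly alike in both ratios, and NCAM-enriched library 3 was the closest to them. Both ratios are of counts that remained after abundant sequences were removed, and the effect of that removal was not tested.

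Of the protein-coding genes, the complex I subunits mt-Nd4, mt-Nd5 and mt-Nd6 had the highest fold changes. mt-Nd4 (chromosome M, 10167 to 11544, plus strand) had 399, 828 and 142 CPM in the NCAM-enriched libraries and 77.0, 47.1 and 85.3 CPM in bulk skin, without overlap. Its log2 fold change was 2.71 ± 0.63 (edgeR adjusted p = 0.0590, DESeq2 adjusted p = 0.00101), and edgeR called it without NCAM-enriched library 2 (adjusted p = 0.0454) or 3 (adjusted p = 0.0155). mt-Nd5 (chromosome M, 11742 to 13565, plus strand) had 174, 382 and 82.0 CPM against 49.1, 26.2 and 49.6. It had a log2 fold change of 2.35 ± 0.60 (edgeR adjusted p = 0.0714, DESeq2 adjusted p = 0.00563). mt-Nd6 (chromosome M, 13552 to 14070, minus strand), the sole protein-coding gene on the opposite strand, had 90.9, 291 and 33.8 CPM against 26.1, 9.94 and 26.9. Its log2 fold change was 2.72 ± 0.80 (edgeR adjusted p = 0.101, DESeq2 adjusted p = 0.0119). Smart-seq2 keeps no strand, so reads of mt-Nd6 and of the opposite strand cannot be told apart. By edgeR with all libraries these 3 genes were not called under the filter on low counts and were called when every gene with at least 1 count was tested. All 3 were also called without NCAM-enriched library 3 (edgeR adjusted p = 0.0155 to 0.0358), when 7.35% of all genes were called higher.

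The other complex I subunits with enough counts overlapped between the groups. mt-Nd1 (chromosome M, 2751 to 3707, plus strand) had 481, 833 and 261 CPM in the NCAM-enriched libraries and 267, 131 and 268 CPM in bulk skin, so that NCAM-enriched library 3 was below 2 of the bulk skin libraries. Its log2 fold change was 1.24 ± 0.51 (edgeR adjusted p = 0.225). mt-Nd2 (chromosome M, 3914 to 4951, plus strand) had 252, 593 and 112 CPM against 112, 60.5 and 109, with a log2 fold change of 1.76 ± 0.60 (edgeR adjusted p = 0.150). The overlap in mt-Nd2 was between NCAM-enriched library 3 and bulk skin library 1 alone. mt-Nd3 (chromosome M, 9459 to 9806, plus strand) had 5, 0 and 9 counts against 6, 2 and 5 and was not tested.

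Smaller fold changes were seen for the tested subunits of complexes III and IV. mt-Cytb (chromosome M, 14145 to 15288, plus strand), cytochrome b and the one mitochondrially encoded subunit of complex III, had 555, 807 and 410 CPM in the NCAM-enriched libraries and 360, 186 and 351 CPM in bulk skin. The groups did not overlap, but the log2 fold change of 0.98 ± 0.42 was not called (edgeR adjusted p = 0.255, DESeq2 adjusted p = 0.181). mt-Co1 (chromosome M, 5328 to 6872, plus strand), the catalytic subunit of complex IV, had 244, 405 and 194 CPM against 185, 102 and 189. Here the lowest NCAM-enriched and the highest bulk skin library nearly met, and the log2 fold change was 0.82 ± 0.42 (edgeR adjusted p = 0.343, DESeq2 adjusted p = 0.322). Neither gene was called under any of the 14 alternatives.

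**Figure D3:**
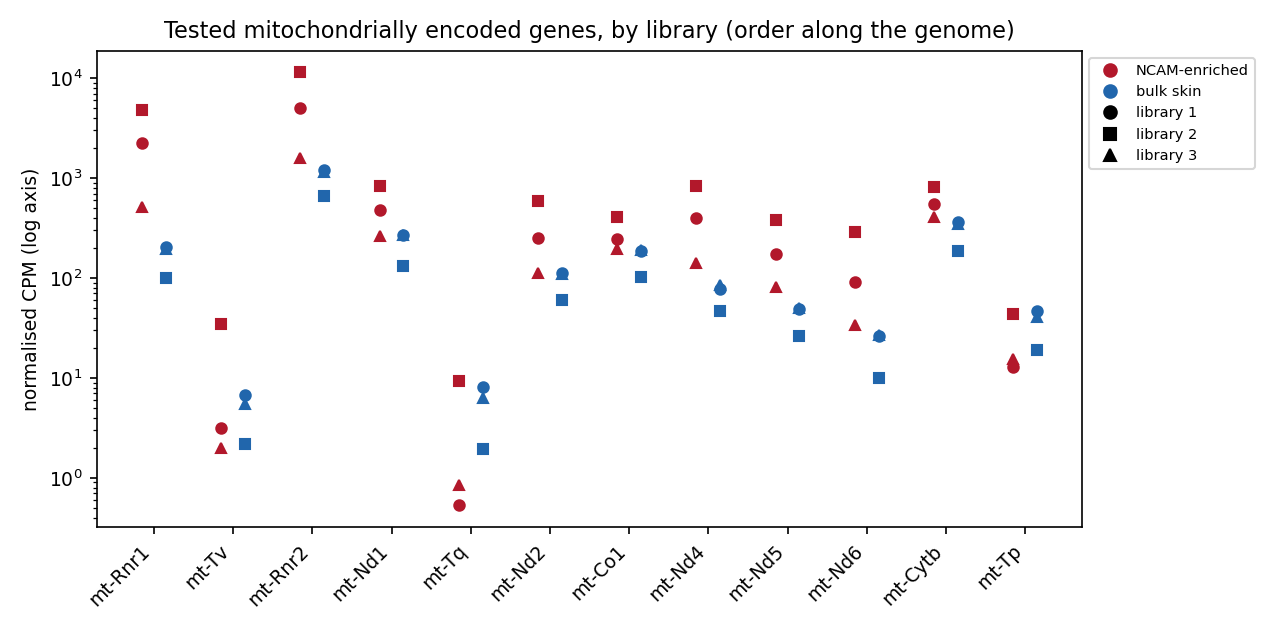
Normalised CPM (log axis) of the 12 tested mitochondrially encoded genes in each library, in their order along the genome (red, NCAM-enriched; blue, bulk skin; symbols, libraries 1 to 3). The groups are farthest apart for mt-Rnr1, at 516 to 4795 against 101 to 206 CPM, and overlap for mt-Nd1, mt-Nd2 and the 3 tRNA genes.

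**Figure D4:**
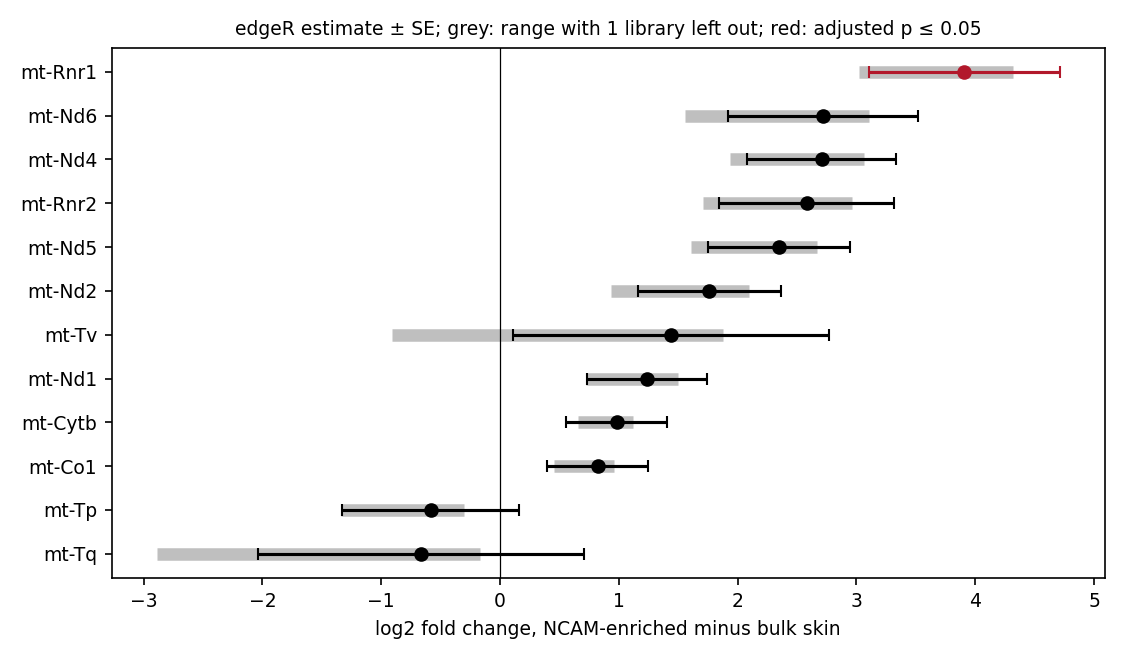
Log2 fold change (NCAM-enriched minus bulk skin) of the 12 tested genes from edgeR, with the SE as error bars and the range over the 6 fits that left out a library in grey. Only mt-Rnr1 (red) had an adjusted p of at most 0.05, and only mt-Tv changed sign within its grey range.

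The mix of protein-coding transcripts differed between the groups as well, and was more alike among the bulk skin libraries. As a share of mitochondrial protein-coding counts, mt-Cytb took 33.4%, 33.1% and 32.5% in bulk skin libraries 1 to 3 and 25.2%, 19.5% and 33.2% in NCAM-enriched libraries 1 to 3, so the groups overlapped through library 3. mt-Nd4 took 7.14%, 8.36% and 7.89% in bulk skin against 18.2%, 20.01% and 11.5% in the NCAM-enriched group, a difference in means of 8.76 percentage points. mt-Nd4 thus gained the most of all 8 genes with counts. The share of mt-Nd5 was 4.55%, 4.64% and 4.59% against 7.90%, 9.24% and 6.63%, and that of mt-Nd6 2.42%, 1.76% and 2.49% against 4.13%, 7.02% and 2.73%. In these 3 genes every NCAM-enriched library was above every bulk skin library. In the opposite direction, mt-Co1 took 17.2%, 18.0% and 17.5% in bulk skin against 11.1%, 9.78% and 15.7% in the NCAM-enriched group, and mt-Nd1 24.7%, 23.3% and 24.8% against 21.9%, 20.1% and 21.1%. For each of these 5 genes the exact two-sided permutation p was 0.1, the smallest possible (0.160 adjusted over 8 genes). mt-Nd2 (10.4 ± 0.332% in bulk skin against 11.6 ± 2.66% in the NCAM-enriched group, n = 3) and mt-Nd3 (0.125 ± 0.0481% and 0.109 ± 0.104%) overlapped, with exact permutation p-values of 0.7 and 0.9. The shares of 1 library sum to 100%, so these differences are not independent. In all, 15.7% of the mean protein-coding composition was distributed differently (the summed absolute differences divided by 2), 11.0% without NCAM-enriched library 2 and 21.1% without NCAM-enriched library 3. By the same measure single libraries differed by 8.95 to 20.7% within the NCAM-enriched group and by 1.29 to 2.49% within bulk skin. NCAM-enriched library 3 differed less from the bulk skin libraries, by 6.32 to 6.80%, than from the other libraries of its own group, by 12.6 and 20.7%, whereas NCAM-enriched libraries 1 and 2 differed from bulk skin by 16.2 to 26.1%.

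**Figure D5:**
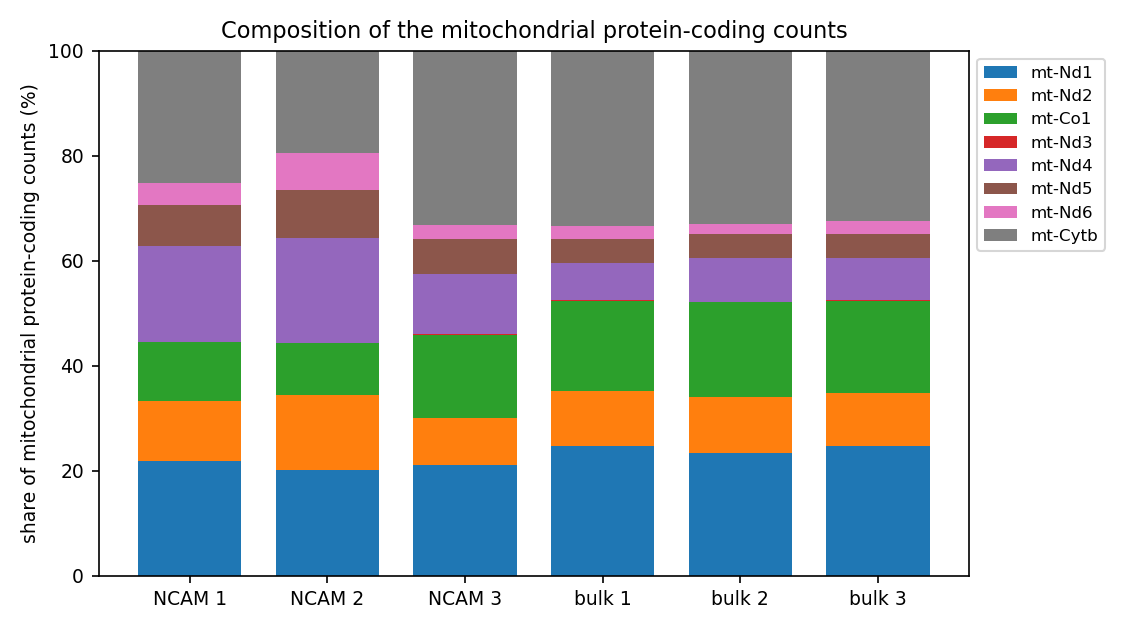
Share (%) of mitochondrial protein-coding counts taken by each of the 8 genes with counts, 1 bar per library. The bulk skin bars are nearly the same, whereas mt-Nd4 takes 11.5 to 20.01% in the NCAM-enriched libraries against 7.14 to 8.36% in bulk skin, and NCAM-enriched library 3 is the closest to the bulk skin bars.

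Levels were compared between genes per length, as CPM of the library total per 1000 windows of 50 bases without a copy elsewhere. In bulk skin mt-Rnr2 was the highest at 671 ± 196 (SD, n = 3), followed by mt-Cytb at 277 ± 88.1, mt-Nd1 at 248 ± 86.3, mt-Co1 at 220 ± 67.9, mt-Rnr1 at 188 ± 62.8, mt-Nd4 at 141 ± 41.3 and mt-Nd2 at 105 ± 31.4. Lowest were mt-Nd6 at 45.2 ± 20.5 and mt-Nd5 at 25.7 ± 8.16. This order was the same in all 3 bulk skin libraries. For mt-Cytb, mt-Nd1, mt-Co1, mt-Rnr1, mt-Nd4 and mt-Nd6, however, the SD was larger than the step to the next gene. The SD reflects a spread that the genes of a library share. In the NCAM-enriched group the order of the same levels was mt-Rnr2 (3786 ± 3183), mt-Rnr1 (2655 ± 2302), mt-Nd4 (868 ± 671), mt-Nd1 (550 ± 312), mt-Cytb (512 ± 184), mt-Co1 (365 ± 150), mt-Nd2 (335 ± 265), mt-Nd6 (282 ± 278) and mt-Nd5 (124 ± 91.5). mt-Rnr1 and mt-Nd4 stood higher in this order than in bulk skin, and mt-Rnr2 was above mt-Rnr1 and mt-Rnr1 above mt-Nd4 in all 3 NCAM-enriched libraries. The order of mt-Nd4 and mt-Nd1, of mt-Nd1 and mt-Cytb and of mt-Co1 and mt-Nd2 held in 2 of the 3. mt-Nd3 was left out of the order because only 6 of its windows have no copy. Part of the order depends on this divisor, which takes copied windows to hold no counts, and that is not known. Per 1000 bases, mt-Nd4 (316) was below mt-Nd1 (522) and mt-Cytb (490) in the NCAM-enriched group. In bulk skin mt-Nd4 (51.5) was then below mt-Nd2 (91.7), and mt-Rnr1 (178) above mt-Co1 (104).

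The tRNA genes had few counts, 43, 179 and 87 in the NCAM-enriched libraries and 243, 140 and 220 in bulk skin. In 9 of the 22 no count was seen. For the 5 of these outside the copied stretch a count of 0 allows up to 0.649 to 2.32 CPM per library (3 counts), and for the 4 inside it no level can be stated. Most tRNA counts in bulk skin fell on mt-Tp, the proline tRNA gene (chromosome M, 15356 to 15422, minus strand), shown with the 2 other tRNA genes that were tested, mt-Tv for valine (chromosome M, 1025 to 1093, plus strand) and mt-Tq for glutamine (chromosome M, 3772 to 3842, minus strand).
mt-Tp: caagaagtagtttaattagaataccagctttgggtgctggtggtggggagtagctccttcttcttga
mt-Tv: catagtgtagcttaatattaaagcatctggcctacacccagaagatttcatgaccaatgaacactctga
mt-Tq: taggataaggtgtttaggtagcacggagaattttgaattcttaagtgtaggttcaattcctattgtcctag

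mt-Tp had 12.8, 43.3 and 15.3 CPM in the NCAM-enriched libraries and 46.9, 19.0 and 40.3 CPM in bulk skin, and the groups overlapped (log2 fold change -0.58 ± 0.75, edgeR adjusted p = 0.744). It took 55.8%, 31.3% and 62.1% of the tRNA counts against 62.1%, 62.9% and 66.8%. Relative to all mitochondrially encoded counts, mt-Tp took 0.134%, 0.211% and 0.454% in the NCAM-enriched libraries and 1.83%, 1.41% and 1.61% in bulk skin. It was thus lower in every NCAM-enriched library (exact permutation p = 0.1, adjusted 0.209 over the 23 genes with counts). The same pattern and p were seen for mt-Nd1, mt-Nd2, mt-Co1, mt-Cytb, mt-Ti, mt-Tq, mt-Ts2 and mt-Tt. The rRNA genes made up 54.4 to 79.1% of the denominator. mt-Tv had 3.19, 34.8 and 1.99 CPM against 6.83, 2.16 and 5.48, with a log2 fold change of 1.44 ± 1.33 (edgeR adjusted p = 0.626) that was -0.91 without NCAM-enriched library 2. mt-Tq had 0.531, 9.27 and 0.851 CPM against 8.07, 1.95 and 6.31, with a log2 fold change of -0.66 ± 1.37 (edgeR adjusted p = 0.855). In both genes NCAM-enriched library 2 stood far above the other 2 libraries of its group. As strand is not kept, reads of the minus-strand genes mt-Tp and mt-Tq cannot be told apart from reads of the opposite strand. Whether counts at tRNA genes came from tRNAs or from longer precursors was not tested.

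The other tRNA genes did not pass the filter on low counts. Their counts, summed over the NCAM-enriched and the bulk skin libraries, were 31 and 13 for mt-Tm (methionine), 18 and 11 for mt-Ta (alanine), 11 and 13 for mt-Tc (cysteine) and 11 and 17 for mt-Tl1 (leucine). For mt-Tl2 (leucine) they were 8 and 5, for mt-Tt (threonine) 6 and 16, for mt-Tf (phenylalanine) 4 and 11 and for mt-Ts2 (serine) 2 and 17. The remaining genes with counts, mt-Tr and mt-Ti, had 9 and 0 and 1 and 4 counts. Among the tRNA genes with 10 or more counts, only mt-Tm had higher CPM in every NCAM-enriched library than in any bulk skin library. It had 5, 18 and 8 counts against 4, 3 and 6. Only mt-Ts2 had lower CPM, with 1, 1 and 0 counts against 5, 5 and 7, under 3 counts in each NCAM-enriched library. Neither gene was tested. Of all genes tested, 11.1% lay above and 19.3% below bulk skin in every NCAM-enriched library.

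Summed together, nuclear copies of mitochondrial sequence had more counts in the NCAM-enriched group. A 50-base window was shared with 15 nuclear genes, of which 14 are in the count table, and these had 260, 376 and 178 counts in the NCAM-enriched libraries and 24, 28 and 28 in bulk skin. Relative to the mitochondrially encoded counts of the same library this was 1.45%, 1.42% and 1.49% against 0.291%, 0.448% and 0.307%. The summed copies thus differed by more than the mitochondrial genes themselves. The groups did not differ in the same way at every copy. In summed counts, Gm10925 had 5 against 7 and Gm28661 1 against 4, whereas Gm20594 had 40 against 1 and Gm11407 62 against 0. The 3 copies described next had the most counts over all libraries, a choice that favours copies high in 1 group. Most counts (469 of 894) were at Gm13340, a copy of mt-Co1 on chromosome 2 (22588103 to 22589647, minus strand), with 134, 183 and 111 counts against 10, 19 and 12. Its log2 fold change was 4.51 ± 0.74 (edgeR adjusted p = 0.0220), a call lost without bulk skin library 1 (edgeR adjusted p = 0.182), 2 (0.149) or 3 (0.150) and in the replicate block fit (0.0539). Gm11512, on chromosome 11 (90538484 to 90539146, minus strand), which shares 5 windows with mt-Co1, had 47, 68 and 26 counts against 1, 0 and 1. Pooled over libraries this was 141 counts against 2, a ratio of 121 with an exact 95% counting interval of 32.9 to 1008 (edgeR adjusted p = 0.0457). That call was lost when any single bulk skin library was left out (edgeR adjusted p = 0.227 to 0.270), without NCAM-enriched library 1 (0.0656) and with the block (0.151). Gm4076, on chromosome 13 (85126550 to 85127514, minus strand), which shares sequence with mt-Nd5, had 16, 52 and 8 counts against 0. With the libraries of each group pooled, and 3 counts taken as the limit for bulk skin, it was higher by at least 43.5-fold. Without NCAM-enriched library 2, which held 52 of its 76 counts, the value was at least 17.0-fold. Pooled values do not measure the spread between libraries. Whether these reads came from nuclear or from mitochondrial RNA was not tested.

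Nuclear genes that work with the mitochondrial genome lay mostly below 0. Mitochondria import the enzymes that transcribe, process and translate the mitochondrial genome, and most respiratory chain subunits are nuclear encoded. Of 39 nuclear subunits of complexes I, III and IV and of the ATP synthase, all tested, edgeR called none in either direction (1 above and 18 below 0 at an unadjusted p under 0.05, as had 18.9% of all genes in either direction), while DESeq2 called 12 lower and none higher, where it called 7.1% of all genes lower, and limma-voom 10 lower (6.45%). Their median log2 fold change was -0.95 against -0.07 for all genes tested, and from -1.05 to -0.94 over the other normalizations, with 6 of 39 above 0. Atp5k, a subunit of the ATP synthase membrane part, had 114, 128 and 191 CPM in the NCAM-enriched libraries and 568, 306 and 451 CPM in bulk skin, without overlap. Its log2 fold change was -1.61 ± 0.40 (edgeR adjusted p = 0.0671, DESeq2 adjusted p = 0.00509). Atp5c1, the gamma subunit of the catalytic part, had 100, 126 and 245 CPM against 742, 422 and 511 and a log2 fold change of -1.83 ± 0.45 (edgeR adjusted p = 0.0688, DESeq2 adjusted p = 0.00445). Atp5b, the catalytic beta subunit and the most abundant gene of the list, had 1217 ± 148 CPM against 966 ± 154 (n = 3; edgeR adjusted p = 0.695).

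Of the genes that act on mitochondrial DNA and RNA, edgeR called 0 in either direction. Of 17 listed genes of transcription, replication and the nucleoid, 15 were tested. At an unadjusted p under 0.05, 1 was above and 1 below 0, beside 18.9% of all genes in either direction. DESeq2 called 1 lower, where it called 7.1% of all genes lower, and limma-voom called none. The median log2 fold change of the 15 was -0.84, beside -0.07 over all genes tested, and 4 of 15 lay above 0. Polrmt, the mitochondrial RNA polymerase, had 57.4, 97.4 and 38.0 CPM in the NCAM-enriched libraries and 33.5, 20.5 and 14.3 CPM in bulk skin, with a log2 fold change of 1.49 ± 0.61 (edgeR adjusted p = 0.225). The NCAM-enriched libraries were all above those of bulk skin. Mterf3, a negative regulator of mitochondrial transcription and the gene called by DESeq2, had 11.2, 5.41 and 10.2 CPM against 30.4, 34.6 and 33.2, with a log2 fold change of -1.86 ± 0.74 (edgeR adjusted p = 0.217, DESeq2 adjusted p = 0.0372). Of 29 listed genes of RNA processing, stability and turnover, 27 were matched by symbol and tested. At an unadjusted p under 0.05, 1 was above and 1 below 0, again beside 18.9% of all genes in either direction. Neither DESeq2 nor limma-voom called any. The list had a median log2 fold change of -0.19, with 11 of 27 above 0. Trit1, a tRNA-modifying enzyme, had 44.8 ± 9.24 against 15.98 ± 2.84 CPM (n = 3; edgeR adjusted p = 0.227), and Hsd17b10, a subunit of mitochondrial RNase P, had 88.0 ± 53.1 against 220.3 ± 43.3 CPM (n = 3; edgeR adjusted p = 0.231). Rexo2, an exonuclease that degrades short RNA fragments and the most abundant gene of this list, had 143 ± 57.6 against 198 ± 17.4 CPM (n = 3; edgeR adjusted p = 0.599).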

How the data were processed

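The authors clipped adapters and poly(A) from single-end reads of 50 bases, removed abundant sequences, aligned to GRCm38 with STAR and counted reads per gene with featureCounts. The deposited table holds these raw counts for 54532 genes in 6 libraries. No source used here gives the annotation release or the settings for strand and for reads with several positions. The genes and lists were chosen with earlier results of these data known.

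Of the gene IDs, 54495 were found in GENCODE M21 (GRCm38), which gave coordinates and transcript sequences. No genome sequence was given, so each 50-base window of a mitochondrial transcript was searched on both strands of all other annotated transcripts, and copied shares are minimum values for exact copies.

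Shares and ratios were compared between groups by the exact two-sided permutation test. Genes were compared with edgeR 4.0.16 (R 4.3.3; filterByExpr, TMM normalisation, quasi-likelihood fit, no covariate) over 13157 genes, with Benjamini-Hochberg adjustment over all of them and calls at an adjusted p of at most 0.05. CPM are counts at the TMM-adjusted library size, over genes that passed the filter, and 1 count was 0.216 to 0.773 CPM. The SE is the log2 fold change divided by the root of the F statistic. Libraries held 1343190 to 4481830 counts, and the shallower NCAM-enriched libraries are the less precise ones. DESeq2 1.42.0, limma-voom (limma 3.58.1), other normalizations and filters, a replicate block and the omission of each library served as alternatives. The scripts were tested on simulated data.

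The text gives all protein-coding and rRNA genes, tRNA genes with at least 10 counts, the 3 nuclear copies with most counts and, for each list, the 2 genes with the smallest p and the most abundant gene that was not called. The ratio of mt-Rnr1 to mt-Rnr2, the share over genes with few copied windows, the overlap on library totals and the comparisons of single libraries were chosen after the data were seen. No column was left out.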

Additional observations from a re-analysis of the deposited data

How the results depend on the processing

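Precision was limited by 3 libraries per group, by the spread within the NCAM-enriched group and, for the tRNA genes, by low counts. The groups' shares of all, protein-coding and rRNA genes differed in the same direction under every alternative tried, and with a library left out the differences ranged from 0.389 to 1.22, from 0.0691 to 0.211 and from 0.323 to 1.005 percentage points. The tRNA difference (0.000338 percentage points) became -9.93e-05 when every library was thinned to 1343190 counts, and ranged from -0.00336 to 0.00222 with a library left out, being negative without NCAM-enriched library 2 and without bulk skin library 2 (-0.000893). Of the mitochondrially encoded genes tested, 1 was called higher by edgeR, 5 by DESeq2, 3 by limma-voom and 6 when all 27884 genes with at least 1 count were tested. With a library left out the number was 0 to 6: 0 without NCAM-enriched library 1 or any bulk skin library, 2 without NCAM-enriched library 2 and 6 without NCAM-enriched library 3, while 5 to 8 of the 12 had an unadjusted p under 0.05 in each of these edgeR fits, beside 14% to 29.6% of all genes. The number called lower was 0 in all of these fits. Over all genes, edgeR called 137 higher and 204 lower, DESeq2 661 and 928 and limma-voom 351 and 849, and with a library left out 0 to 1099 were called higher and 13 to 733 lower.

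Whether same-numbered libraries share an animal or a dissociation is not stated. The correlations of their deviations from the group means were 0.0231, 0.000232 and -0.00776. These correlations cannot decide whether the samples are paired, because the NCAM-enriched libraries differed widely among themselves. Under the replicate block, 0 of the 12 genes were called (5 at an unadjusted p under 0.05, beside 15.5% of all genes), while 50 of all genes were called higher and 92 lower. No call of the pathway lists changed under the block. In the transcription, replication and nucleoid list, 1 gene was called lower by DESeq2 and 0 to 1 with a library left out. Of the nuclear subunits, 12 were called lower by DESeq2, 10 by limma-voom, 10 with all genes tested and 0 to 5 with a library left out (5 without NCAM-enriched library 3). The log2 fold change of mt-Tv was -0.91 without NCAM-enriched library 2 and up to 1.88 with another library left out, and this gene alone changed sign among the 12. Composition differed by 15.7% with raw counts, 15.2% per length, 17.9% per window without a copy and 11.0 to 21.1% with a library left out. The causes were not tested.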
